A study of Homo sapiens with 12 samples.

Results

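The genes of the RAS, RAF, MEK and ERK kinase cascade were followed upon knockdown of the RNA-binding protein IGF2BP1 in a liver cancer line and a neuroblastoma line. The 7 members were chosen by name: the RAS GTPases NRAS and HRAS, the RAF kinases ARAF and BRAF, the MEK kinases MAP2K1 and MAP2K2, and the ERK kinase MAPK3. They are 7 of the 58174 genes listed for each cell line, and all 7 passed the filter on low values in both. No other gene of these families was taken as a member, and some relatives are counted in lists further below.

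RAS proteins are membrane-bound GTPases that switch on when receptor tyrosine kinases recruit exchange factors. Active RAS recruits RAF kinases, which phosphorylate MEK, and MEK in turn phosphorylates ERK, which acts on cytoplasmic and nuclear substrates and induces genes that restrain the cascade. The cascade is a main driver of proliferation in many tumors, and IGF2BP1 is an oncofetal protein that binds mRNAs and protects many of them from decay.

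The cells were transfected with either siC, a control siRNA (CEL-miR-239b), or siI1, a pool of siRNAs directed against IGF2BP1, and after 72 h their poly-A RNA was sequenced. HepG2 cells, which derive from a liver tumor, received 15 nM siRNA, and BE(2)C cells, which derive from a neuroblastoma, received 25 nM. Each siRNA and cell line had 3 libraries, described in the study's methods as biological replicates, 12 in all. Between 12852988 and 15721210 reads per library fell on genes, and values are FPKM, which account for gene length and library size. The p-values below set differences between groups against the spread between libraries.

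The cell line labels were checked against marker genes. The 8 hepatic markers summed to between 7563 and 13787 FPKM in the HepG2 libraries and to at most 0.237 in the BE(2)C libraries. The 8 neuroblastoma markers summed to between 1799 and 2003 FPKM in BE(2)C and to at most 0.241 in HepG2. The summed hepatic markers moved with the knockdown in HepG2, from 7633, 7588 and 7563 FPKM with siC to 12096, 13618 and 13787 with siI1. ALB, APOA1, SERPINA1, FGB and HNF4A were higher in each siI1 library than in any siC library, while AFP and TTR were lower in each and APOB overlapped. AFP went from 1579, 1565 and 1544 FPKM to 992, 1062 and 1065, against 3211, 3085 and 3170 to 5916, 6209 and 6125 for ALB. The summed FPKM of the 6 blood and stromal markers differed between the groups in both lines, though most of these genes did not separate them. The sum in BE(2)C went from 6.04, 6.41 and 7.16 with siC to 13.2, 14.4 and 13.5 with siI1. LUM held nearly all of that sum, COL1A2 overlapped, PTPRC was listed at 0 in each BE(2)C library, and the other 3 had at most 2 reads in any. In HepG2 the 6 genes summed to 0.0923, 0.166 and 0.169 FPKM with siC against 1.21, 0.806 and 0.602 with siI1, from at most 77 reads of a gene in a library, and only HBB, at 0 with siC, did not overlap. The part of these marker changes in the results below was not tested, and in bulk RNA fewer cells with a transcript and less of it per cell cannot be told apart.

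The siRNA target separated the groups in both lines. IGF2BP1 measured 48.5, 46.6 and 50.8 FPKM in the siC libraries of HepG2 and 12.6, 10.7 and 10.7 in the siI1 libraries. The BE(2)C libraries held 21.3, 20.6 and 21.6 FPKM with siC and 4.85, 4.75 and 4.87 with siI1. The log2 fold change was -2.10 ± 0.08 (SE) in HepG2 and -2.11 ± 0.05 in BE(2)C (limma, adjusted p = 7.8e-06 and 1.5e-05), and the difference between the lines was 0.02 ± 0.09 (adjusted p = 0.91).

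A trend with base composition set some libraries apart. Among the 12780 genes of HepG2 with a mean FPKM of at least 1, the 20% with the highest GC content were compared with the 20% with the lowest. In the siC libraries the GC-rich genes stood below the GC-poor ones, by medians of -0.34, -0.18 and -0.29 on the log2 scale relative to each gene's mean. In the siI1 libraries of HepG2 the same measure was 0.01, 0.38 and 0.42, so replicate 1 lay between the siC libraries and the other siI1 libraries. In BE(2)C, over 12147 genes, the siC libraries had 0.31, 0.01 and 0.06 and the siI1 libraries -0.06, -0.16 and -0.14, and replicate 1 of siC lay apart. The trend thus differed with the siRNA, in opposite directions in the 2 lines, and its origin was not tested. Results with each of these libraries left out, and with the trend removed from every library (GC-corrected values, a fit chosen after seeing the data), are given below where they differ from the rest.

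In HepG2, NRAS and MAP2K1 fell while MAPK3 rose, and the other members did not pass the test. That is 2 of 7 members lower and 1 of 7 higher at an adjusted p below 0.05. Of all 19436 genes tested in HepG2, 44.8% passed, 23% as lower and 21.9% as higher, so the share of members called was near that of all genes. In BE(2)C, NRAS, ARAF and MAP2K1 were lower and no member was higher, 3 of 7, though the MAP2K1 call did not hold in several other fits given below. Of all 18656 genes tested in BE(2)C, 28.2% passed, 14.8% as lower and 13.3% as higher. The median log2 fold change over all genes tested was 0.01 in HepG2 and 0.02 in BE(2)C, and the median of its size was 0.46 and 0.29. The calls in HepG2 split into 4463 lower and 4250 higher genes, against 3691 and 5024 with libraries centred on their medians and 5839 and 3206 with equal sums of FPKM, a scaling that shifted all HepG2 fold changes by a median of -0.16. Without replicate 1 of siI1 in HepG2, 2 members were higher, as ARAF then passed at a log2 fold change of 0.22 (adjusted p = 0.032).

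**Figure D1:**
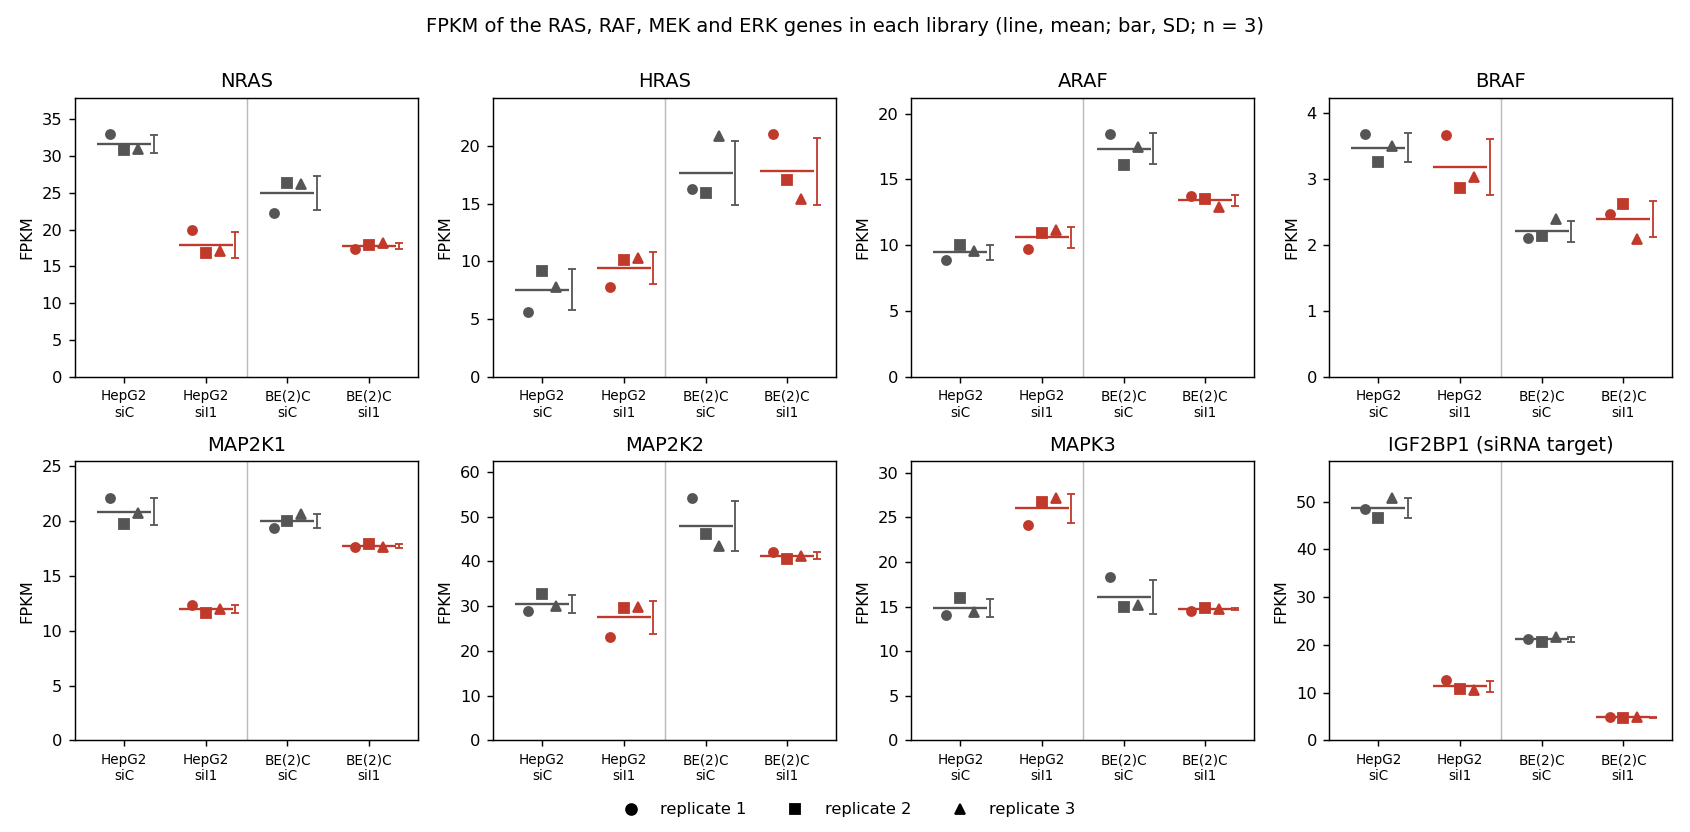
FPKM (vertical axes, from 0) of the 7 genes and of IGF2BP1 in each of the 12 libraries by cell line and siRNA, with marker shapes for the replicate numbers, lines for the means and bars for the SD (n = 3). NRAS and MAP2K1 show no overlap between siC and siI1 in either line, and MAPK3 in HepG2 lies between 14.1 and 16.0 with siC and between 24.1 and 27.2 with siI1.

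NRAS is the RAS isoform of chromosome 1 (ENSG00000213281, chr1:114704469-114716771, minus strand, hg38). Its 3'UTR of 3625 nt, longer than 86.4% of the 19057 annotated 3'UTRs (GENCODE v44, canonical transcripts, median 1071 nt), holds matches to the seed of the let-7 microRNA family, which is known to target RAS mRNAs and which IGF2BP1 is known to counteract on some of its targets. Searched on the transcript strand were CTACCTCA (an 8-mer), CTACCTC and TACCTCA (7-mers within the 8-mer, counted only outside of one), and 2 matches were found in NRAS. The mature let-7a-5p is shown with its seed in capitals (RefSeq, GRCh38.p14) and the windows of the NRAS 3'UTR with the match in capitals (hg38, minus strand), at chr1:114707901-114707930 and chr1:114705495-114705524.
let-7a-5p: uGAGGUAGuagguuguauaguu
NRAS first match: atttgagaagttctcagaataaCTACCTCc
NRAS second match: attgctgaaaagaattctagttTACCTCAa
Of all 3'UTRs, 15.8% hold at least 1 such match. Of the 2064 of a length like that of the NRAS 3'UTR, 32.4% hold 1 or more and 5.38% hold 2 or more. No such match occurs in the 3'UTRs of the other 6 members, which span from 277 nt in MAP2K2 to 3932 nt in BRAF. The 3'UTR of IGF2BP1 (6701 nt) holds 5 matches, 3 of them 8-mers, as many as 0.639% of the 783 3'UTRs of like length. These matches describe the sequence, and binding at them was not measured.

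NRAS measured 33.0, 30.8 and 31.0 FPKM in the siC libraries of HepG2 and 19.98, 16.8 and 17.05 in the siI1 libraries. NRAS in BE(2)C measured 22.3, 26.3 and 26.2 FPKM with siC and 17.4, 17.9 and 18.1 with siI1. The groups did not overlap in either line, and replicate 1 of siI1 in HepG2 and replicate 1 of siC in BE(2)C each lay nearest to the other group. The mean went from 31.6 ± 1.21 (SD, n = 3) to 17.9 ± 1.76 FPKM in HepG2, a log2 fold change of -0.82 ± 0.08 (SE, limma, adjusted p = 2.4e-04). The BE(2)C mean of NRAS went from 24.97 ± 2.29 to 17.8 ± 0.39 FPKM, a log2 fold change of -0.48 ± 0.07 (limma, adjusted p = 0.0033). NRAS is among the genes with the lowest GC content (37.4%, above 8.44% of genes), and with GC-corrected values the fall was -0.54 in HepG2 and -0.59 in BE(2)C (limma, adjusted p = 7.7e-05 and 1.2e-04).

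HRAS (ENSG00000174775, chr11:532242-537321, minus strand), a second RAS isoform, spread widely within groups. It measured 5.63, 9.18 and 7.79 FPKM with siC and 7.82, 10.1 and 10.3 with siI1 in HepG2. HRAS in BE(2)C measured 16.3, 15.9 and 20.9 FPKM with siC and 21.0, 17.02 and 15.4 with siI1. The groups overlapped in both lines, and replicate 1 was the lowest of each HepG2 group. The log2 fold change was 0.34 ± 0.19 in HepG2 and 0.01 ± 0.14 in BE(2)C (SE, limma, adjusted p = 0.20 and 0.98), with 95% intervals from -0.12 to 0.79 and from -0.33 to 0.35. With GC-corrected values it was 0.00 in HepG2 and 0.16 in BE(2)C, and with equal sums 0.17 in HepG2. Without replicate 1 of siC in HepG2 it was 0.14, and without single libraries of BE(2)C it ranged from -0.12 without replicate 1 of siI1 to 0.13 without replicate 3 of siC. HRAS had the fewest reads of the members in HepG2, from 162 to 274 per library, and BRAF had the fewest in BE(2)C, from 284 to 396.

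ARAF (ENSG00000078061, chrX:47561205-47571908, plus strand), a RAF kinase encoded on the X chromosome, measured 8.85, 9.98 and 9.53 FPKM with siC and 9.68, 10.9 and 11.2 with siI1 in HepG2. ARAF in BE(2)C measured 18.4, 16.1 and 17.5 FPKM with siC and 13.7, 13.5 and 12.9 with siI1. The groups overlapped in HepG2 and were apart in BE(2)C. The log2 fold change was -0.37 ± 0.06 in BE(2)C (SE, limma, adjusted p = 0.0056) and 0.16 ± 0.08 in HepG2 (adjusted p = 0.14). In HepG2 the value passed with median centring (0.25, adjusted p = 0.035) and without replicate 1 of siI1 (0.22, adjusted p = 0.032), and it turned to -0.01 with equal sums and to -0.03 with GC-corrected values (limma). The GC-corrected value in BE(2)C was -0.23 (limma, adjusted p = 0.0071).

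BRAF (ENSG00000157764, chr7:140719327-140924929, minus strand), the RAF kinase most often mutated in tumors, was the lowest of the members. It measured 3.68, 3.25 and 3.49 FPKM with siC and 3.67, 2.86 and 3.03 with siI1 in HepG2. BRAF in BE(2)C measured 2.1004, 2.13 and 2.39 FPKM with siC and 2.47, 2.62 and 2.095 with siI1. The groups overlapped in both lines, with log2 fold changes of -0.13 ± 0.12 and 0.11 ± 0.12 (SE, limma, adjusted p = 0.42 and 0.54). The value in HepG2 was 0.08 with GC-corrected values, -0.29 with equal sums and -0.04 with median centring, and without replicates 1 and 2 of siI1 in turn it was -0.23 and -0.06. In BE(2)C it was 0.03 with GC-corrected values, and 0.16, 0.04 and 0.20 without replicate 3 of siC, replicate 2 of siI1 and replicate 3 of siI1.

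MAP2K1 (ENSG00000169032, chr15:66386837-66491656, plus strand) encodes MEK1. It measured 22.1, 19.7 and 20.7 FPKM with siC and 12.3, 11.6 and 11.98 with siI1 in HepG2. MAP2K1 in BE(2)C measured 19.4, 20.005 and 20.6 FPKM with siC and 17.6, 17.9 and 17.6 with siI1. The groups were apart in both lines, by a wide gap in HepG2 and a narrow one in BE(2)C. The mean went from 20.8 ± 1.19 (SD, n = 3) to 11.97 ± 0.33 FPKM in HepG2, a log2 fold change of -0.79 ± 0.06 (SE, limma, adjusted p = 9.0e-05), and the GC-corrected value was -0.78. The BE(2)C mean of MAP2K1 went from 19.98 ± 0.61 to 17.7 ± 0.19 FPKM, a log2 fold change of -0.17 ± 0.04 (limma, adjusted p = 0.024). That call did not hold with median centring (limma, adjusted p = 0.054), equal sums (0.063), GC-corrected values (0.091) or no mean-variance trend (0.090). Nor did it hold without replicate 2 of siC (limma, adjusted p = 0.059), replicate 3 of siC (0.074), or replicates 1, 2 or 3 of siI1 (0.075, 0.068 and 0.088), with values between -0.20 and -0.15 over the 6 libraries left out.

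MAP2K2 (ENSG00000126934, chr19:4090321-4124122, minus strand) encodes MEK2 and was the most abundant member in BE(2)C. It measured 28.8, 32.7 and 30.04 FPKM with siC and 23.2, 29.6 and 29.7 with siI1 in HepG2. MAP2K2 in BE(2)C measured 54.2, 46.1 and 43.4 FPKM with siC and 42.1, 40.5 and 41.2 with siI1. The groups overlapped in HepG2, where replicate 1 of siI1 was lowest, and were apart in BE(2)C. The log2 fold change was -0.16 ± 0.11 in HepG2 and -0.21 ± 0.08 in BE(2)C (SE, limma, adjusted p = 0.28 and 0.10). MAP2K2 has one of the highest GC contents (65.4%, above 97.4% of genes). In HepG2 its value was -0.32 with equal sums and -0.53 with GC-corrected values (limma, adjusted p = 0.011 and 2.4e-04). MAP2K2 passed in BE(2)C with voom on recovered reads (-0.21, adjusted p = 0.0094) and without replicate 3 of siC (-0.28, limma, adjusted p = 0.048), and was -0.06 with GC-corrected values and -0.12 without replicate 1 of siC. In HepG2 it was -0.07 with median centring and -0.04 without replicate 1 of siI1.

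MAPK3 (ENSG00000102882, chr16:30114105-30123506, minus strand) encodes ERK1. It measured 14.1, 16.0 and 14.4 FPKM with siC and 24.1, 26.7 and 27.2 with siI1 in HepG2. MAPK3 in BE(2)C measured 18.3, 14.9 and 15.1 FPKM with siC and 14.5, 14.8 and 14.7 with siI1. The HepG2 groups were far apart, and the BE(2)C groups nearly touched, with replicate 1 of siC above the rest. In HepG2 the mean went from 14.8 ± 1.02 (SD, n = 3) to 26.0 ± 1.64 FPKM, a log2 fold change of 0.81 ± 0.07 (SE, limma, adjusted p = 1.9e-04), and the GC-corrected value was 0.57 (adjusted p = 8.4e-05). For BE(2)C the log2 fold change was -0.13 ± 0.08 (limma, adjusted p = 0.31), and it was 0.02 with GC-corrected values and -0.03 without replicate 1 of siC.

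**Figure D2:**
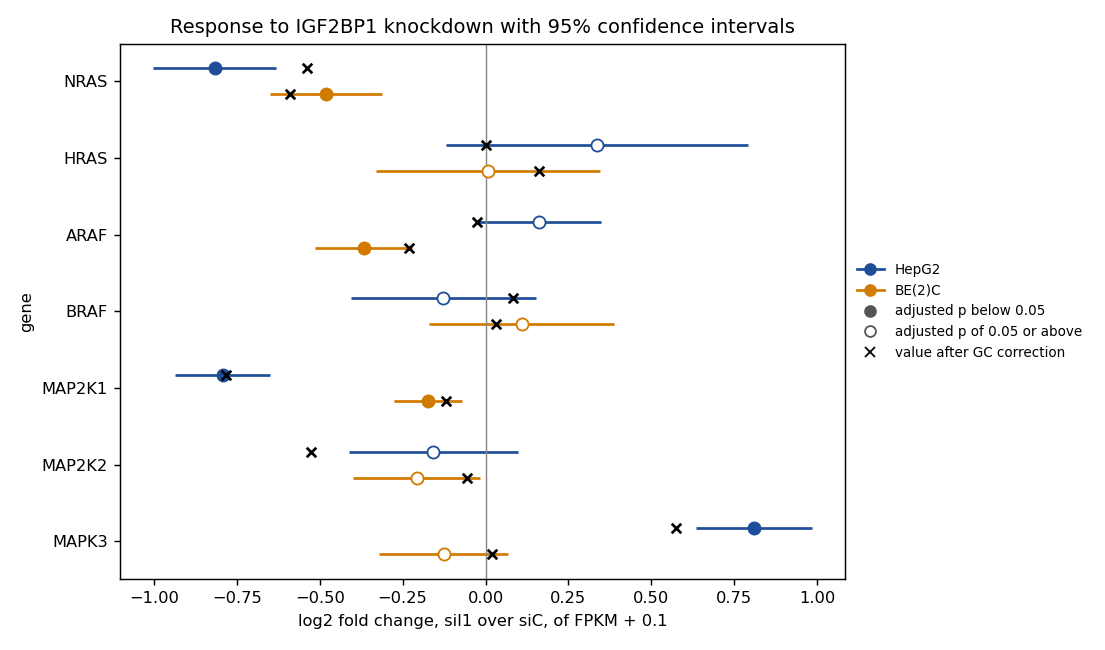
Log2 fold change of siI1 over siC (horizontal axis) of each gene in HepG2 and BE(2)C, with bars for the 95% confidence interval, filled circles for an adjusted p below 0.05 and crosses for the GC-corrected value. MAP2K1 and MAPK3 are far from 0 in HepG2 and near it in BE(2)C, and the cross of NRAS lies at -0.54 in HepG2 and -0.59 in BE(2)C.

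Whether the response differed between the lines was tested for each gene as the difference of its log2 fold changes, HepG2 minus BE(2)C. It passed for 4 of 7 members (40.2% of the 15362 genes tested in both lines passed). MAPK3 differed by 0.94 ± 0.12 (SE, limma, adjusted p = 8.8e-05), as it rose in HepG2 alone of the lines by this test. MAP2K1 differed by -0.62 ± 0.07 (limma, adjusted p = 5.4e-05), with the larger fall in HepG2. ARAF differed by 0.53 ± 0.10 (limma, adjusted p = 0.0018), with a fall in BE(2)C. NRAS differed by -0.34 ± 0.11 (limma, adjusted p = 0.031), with falls in both. The other differences were 0.33 ± 0.26 for HRAS, -0.24 ± 0.17 for BRAF and 0.05 ± 0.14 for MAP2K2 (SE, limma, adjusted p = 0.35, 0.29 and 0.81).

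Several of these differences were smaller once the base composition trend, which ran in opposite directions in the lines, was removed, and that of MAP2K1 was not. With GC-corrected values the difference was 0.55 for MAPK3, -0.66 for MAP2K1 and 0.21 for ARAF (limma, adjusted p = 1.3e-04, 7.1e-05 and 0.020). For NRAS it was 0.05 (limma, adjusted p = 0.46), and for MAP2K2 it was -0.47 (adjusted p = 5.4e-04). HRAS then turned to -0.16 and BRAF to 0.05. With equal sums of FPKM it was -0.52 for NRAS and 0.34 for ARAF (limma, adjusted p = 0.014 and 0.0043), and MAP2K2 turned to -0.14. The MAP2K2 difference, near 0, also turned without replicates 2 or 3 of siI1 in HepG2 (-0.01 and -0.01) and without replicate 1 of siC in BE(2)C (-0.04). The NRAS difference also missed the threshold with median centring (limma, adjusted p = 0.061), with no mean-variance trend (0.056) and without each of 6 single libraries. These were replicate 1 of siC and replicates 2 and 3 of siI1 in HepG2 (-0.30, -0.29 and -0.30, limma, adjusted p = 0.073, 0.076 and 0.072) and replicate 1 of siC and replicates 2 and 3 of siI1 in BE(2)C (-0.26, -0.33 and -0.32, adjusted p = 0.062, 0.060 and 0.065). With both libraries that stood apart left out together, replicate 1 of siI1 in HepG2 and of siC in BE(2)C, the 4 called differences were 0.89, -0.62, 0.54 and -0.34 for MAPK3, MAP2K1, ARAF and NRAS.

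Genes of like GC content give the scale of the trend. In HepG2, the genes within 2 percentage points of the GC content of NRAS had a median log2 fold change of -0.30 (1519 genes), those near MAP2K1 had -0.01 (1623) and those near MAPK3 had 0.22 (1282). The middle 50% of these genes spread from -0.62 to 0.06 around NRAS, from -0.40 to 0.40 around MAP2K1 and from -0.16 to 0.62 around MAPK3, and the members themselves (-0.82, -0.79 and 0.81) lay outside. MAP2K2 (-0.16) also lay outside the middle 50% of its 690 neighbours, from -0.04 to 0.78 with a median of 0.34, opposite to it in sign. HRAS (0.34), ARAF (0.16) and BRAF (-0.13) lay within that range of their neighbours, whose medians were 0.32, 0.18 and -0.20. In BE(2)C, NRAS (-0.48) was the only member outside, with its 1387 neighbours at a median of 0.11 and a middle 50% from -0.08 to 0.32. ARAF (-0.37) lay near the edge of the middle 50% of its 1426 neighbours, from -0.38 to 0.09 with a median of -0.14.

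**Figure D3:**
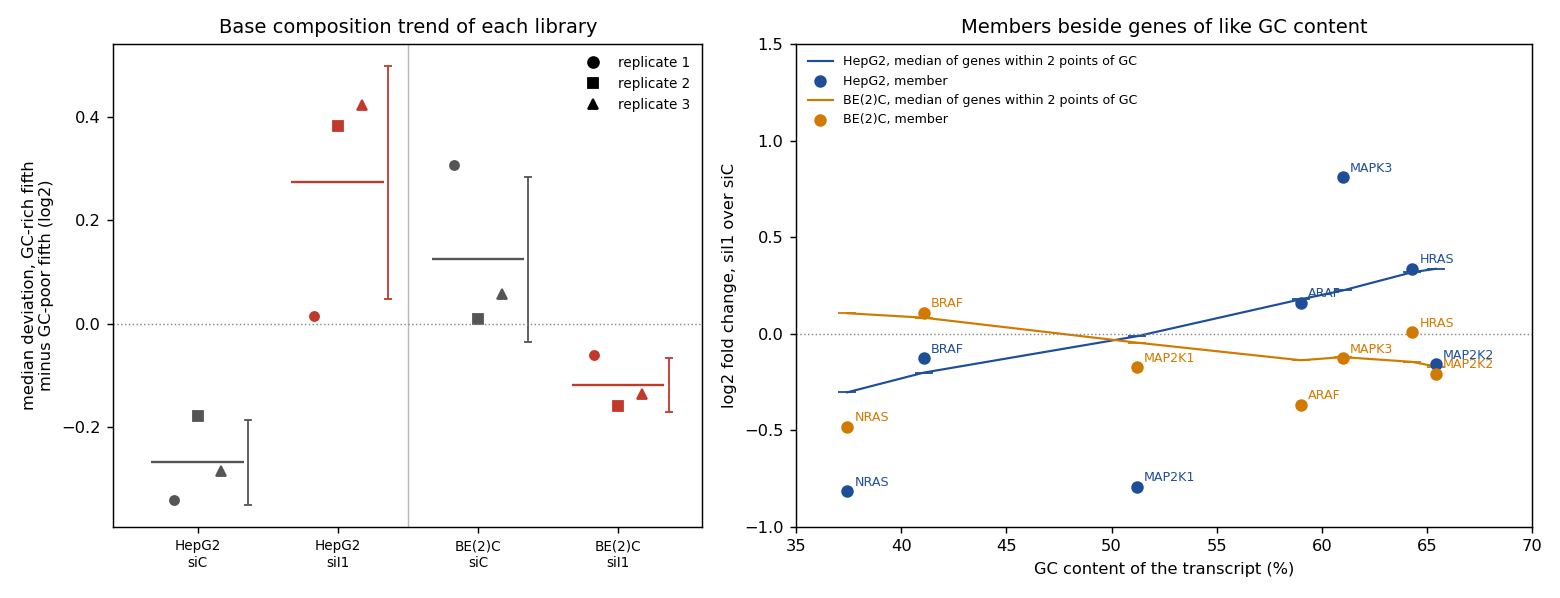
Left, median log2 deviation of the GC-richest 20% of genes minus that of the GC-poorest 20% in each library, with lines for the group means and bars for the SD (n = 3). Right, log2 fold change of each member (points) against the GC content of its transcript in percent, with lines through the median fold change of genes within 2 points of that GC content, which rise from -0.30 at NRAS to 0.34 at MAP2K2 in HepG2 and fall from 0.11 to -0.17 in BE(2)C.

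The ratio of a pair of paralogs within a library does not depend on how that library was scaled. NRAS over HRAS came to 5.86, 3.36 and 3.98 with siC and 2.56, 1.66 and 1.66 with siI1 in HepG2, as a ratio of FPKM. The ratio of NRAS over HRAS in BE(2)C came to 1.37, 1.65 and 1.26 with siC and 0.827, 1.05 and 1.18 with siI1. All siI1 libraries lay below all siC libraries of their line. The mean log2 ratio fell by 1.16 in HepG2 and by 0.49 in BE(2)C, and over both lines, with labels permuted within each line, the mean fall of 0.83 had the smallest p that 400 arrangements can give (two-sided exact permutation test, p = 0.005, adjusted over 3 ratios 0.015). With GC-corrected values the fall was 0.54 in HepG2, 0.75 in BE(2)C and 0.64 over both (exact permutation, adjusted p = 0.015). Within a line, 3 libraries against 3 cannot give a two-sided exact p below 0.1.

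ARAF over BRAF came to 2.41, 3.07 and 2.73 with siC and 2.64, 3.81 and 3.68 with siI1 in HepG2. The ratio of ARAF over BRAF in BE(2)C came to 8.78, 7.54 and 7.31 with siC and 5.57, 5.16 and 6.16 with siI1. The groups overlapped in HepG2 and were apart in BE(2)C. The log2 ratio differed by 0.29 in HepG2 and by -0.48 in BE(2)C (two-sided exact permutation tests, p = 0.3 and 0.1), and the mean over both lines was -0.10 (exact permutation, adjusted p = 0.57). With GC-corrected values the HepG2 difference was -0.11 and the mean over both lines was -0.19 (exact permutation, adjusted p = 0.045), and the BE(2)C difference was -0.26. Without replicate 1 of siI1 in HepG2 the difference there was 0.46, and the mean over both lines ranged from -0.14 to -0.01 as single libraries were left out.

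MAP2K1 over MAP2K2 came to 0.766, 0.603 and 0.689 with siC and 0.530, 0.393 and 0.403 with siI1 in HepG2. The ratio of MAP2K1 over MAP2K2 in BE(2)C came to 0.357, 0.434 and 0.474 with siC and 0.418, 0.442 and 0.427 with siI1. The groups were apart in HepG2 and overlapped in BE(2)C, where replicate 1 of siC was lowest. The log2 ratio differed by -0.64 in HepG2 and by 0.03 in BE(2)C (two-sided exact permutation tests, p = 0.1 and 0.9), with a mean of -0.30 over both lines (exact permutation, adjusted p = 0.14). Without replicate 1 of siC in BE(2)C, that line's difference was -0.08 and the mean over both was -0.36 (exact permutation, adjusted p = 0.023). With GC-corrected values the difference was -0.26 in HepG2 and -0.06 in BE(2)C, with a mean of -0.16.

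**Figure D4:**
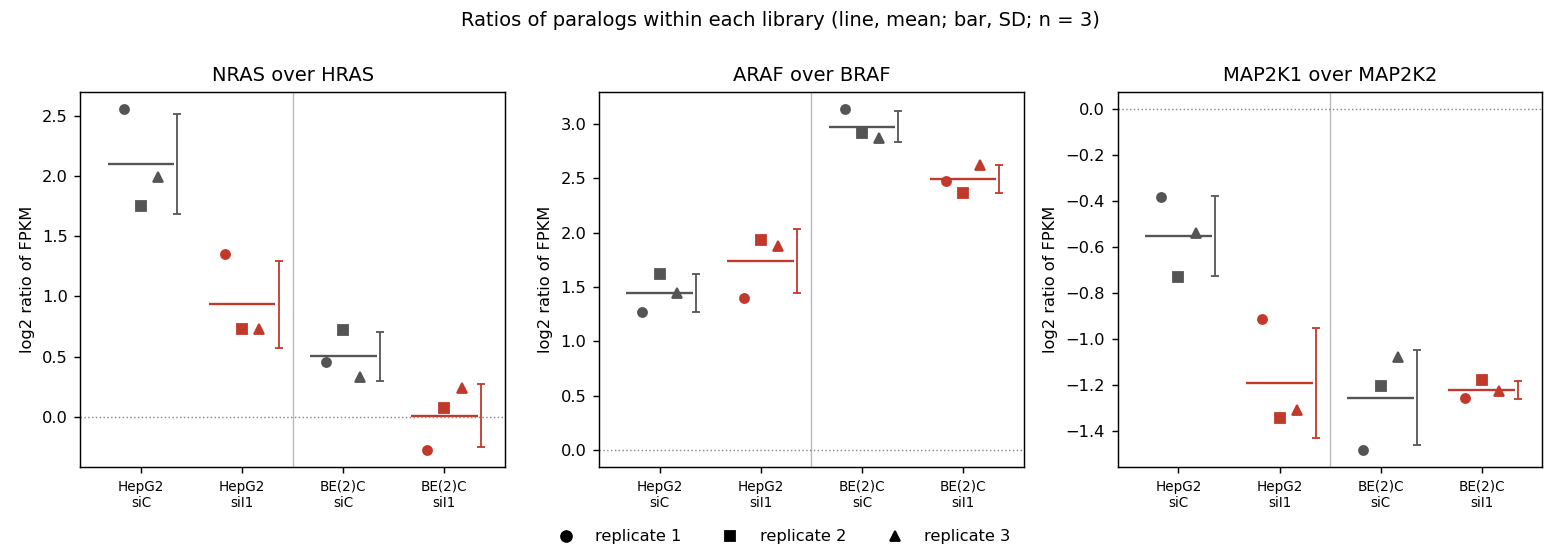
Log2 ratio of FPKM (vertical axes) of NRAS over HRAS, ARAF over BRAF and MAP2K1 over MAP2K2 in each of the 12 libraries, with marker shapes for replicate numbers, lines for the means and bars for the SD (n = 3). The NRAS over HRAS ratio is lower with siI1 in both lines, with means of 2.098 and 0.94 in HepG2 and of 0.50 and 0.01 in BE(2)C.

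The order of the levels, compared per length as FPKM within each group of libraries, changed with the knockdown in HepG2. With siC, NRAS and MAP2K2 led at means of 31.6 and 30.5 FPKM and overlapped, followed by MAP2K1 (20.8), MAPK3 (14.8), ARAF (9.46), HRAS (7.53) and BRAF (3.48). ARAF and HRAS overlapped, and the other neighbours in this order did not. With siI1, MAP2K2 (27.5) and MAPK3 (26.0) led and overlapped, NRAS (17.9) and MAP2K1 (11.97) followed, and ARAF (10.6) and HRAS (9.42) again overlapped above BRAF (3.19). MAPK3 thus stood below NRAS and MAP2K1 with siC and above both with siI1.

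In BE(2)C with siC, MAP2K2 led at a mean of 47.9 FPKM, apart from NRAS (24.97). MAP2K1 (19.98), HRAS (17.7), ARAF (17.3) and MAPK3 (16.1) formed a run in which each overlapped the next, and BRAF was last (2.21). With siI1, MAP2K2 (41.3) was again apart, NRAS, HRAS and MAP2K1 lay together (17.8, 17.8 and 17.7), and MAPK3 (14.7), ARAF (13.4) and BRAF (2.40) followed without overlap. The tables of the 2 lines were normalized separately, so a level in one line was not tested against the other. BRAF was the lowest member in all 12 libraries.

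Genes whose deviations from the cell line mean were most like those of a member were listed over the 12 libraries among 11083 other protein-coding genes, as a description. The libraries share the knockdown and the base composition trend, which alone can give high values. NRAS was most like SNAP23 (Pearson r = 0.99, n = 12) and RFC3 (0.99), and MAP2K1 was most like XPOT (0.99) and MGAT5 (0.99). XPOT and MGAT5 moved more than MAP2K1 itself in HepG2, with log2 fold changes of -1.81 and -1.89. MAPK3 was most like SLC25A23 (r = 0.99) and UBL7 (0.99), with log2 fold changes of 1.02 and 1.01 in HepG2. ARAF was most like KLHDC8B (0.99) and USP5 (0.98), and MAP2K2 most like PFN1 (0.97) and ENO1 (0.97). HRAS and BRAF had lower values, with MED19 (0.90) and CLNS1A (0.89) for HRAS and ZNF587 (0.91) and FAN1 (0.90) for BRAF. Among the members, the deviations of NRAS and MAP2K1 had an r of 0.94, and those of MAP2K1 and MAPK3 of -0.91.

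The genes around the cascade were counted in 8 lists that together hold 110 genes, with MRAS in more than one. In HepG2, 93 of them were tested, 49 were lower and 21 higher, and the median log2 fold change was -0.36 against 0.01 for all genes, of which 23% were lower and 21.9% higher. In BE(2)C, 96 were tested, 19 were lower and 17 higher, with a median of -0.06 against 0.02 for all genes, of which 14.8% were lower and 13.3% higher. These shares of all genes are the background of the list counts with all libraries and the chosen settings. Fewer genes are called overall in most fits without a library, and no list was tested as a set. With equal sums of FPKM, 12 list genes were higher in HepG2, where 3206 of all 19453 genes tested were. Without replicate 2 of siI1 in BE(2)C, 10 list genes were lower and 11 higher there, beside 1934 and 1564 of all 18656 genes. Without replicate 3 of siI1, 10 were lower and 9 higher, beside 1895 and 1519 of all genes.

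Adaptors and exchange factors bring the signal of receptors to RAS. Of 8 tested in HepG2, 3 were lower and 1 higher (median -0.27), and of 7 tested in BE(2)C, 1 was lower and 1 higher (median -0.04). The HepG2 list held 5 lower without replicate 1 of siI1, beside 4973 of all 19436 genes, and none higher without replicate 2 of siC or with equal sums. Single libraries left out gave 0 to 2 lower and 1 to 2 higher in BE(2)C. SHC1, an adaptor of receptor tyrosine kinases, fell in HepG2 from 43.0 to 21.4 FPKM (log2 fold change -1.0 ± 0.05, SE, limma, adjusted p = 1.6e-05). SHC1 rose in BE(2)C from 68.4 to 94.0 FPKM (0.46 ± 0.06, limma, adjusted p = 0.0019), and the difference between the lines was -1.46 ± 0.08 (adjusted p = 2.3e-07). The exchange factor SOS1 rose in HepG2 by 0.51 ± 0.13 (limma, adjusted p = 0.016), a call lost with equal sums (0.12) and without replicate 2 of siC (0.055). The adaptor GRB2 was lower in BE(2)C by a log2 fold change of -0.18 ± 0.04 (limma, adjusted p = 0.015), a call lost without replicate 2 or 3 of siI1 (0.062 and 0.068) and with no mean-variance trend (0.081), and the GC-corrected value was -0.12 (adjusted p = 0.044).

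GTPase-activating proteins switch RAS off. Of 7 tested in HepG2, 4 were lower and none higher (median -0.63), and of 8 tested in BE(2)C, none was lower and 1 was higher (median 0.05). The 4 lower in HepG2 became 2, 1, 2 and 2 without replicate 1 of siC, replicate 3 of siC, replicate 2 of siI1 and replicate 3 of siI1. With GC-corrected values 3 were higher in BE(2)C, beside 3026 of all 18656 genes, against 2489 of all genes with the chosen settings.

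Other RAS-family GTPases, relatives of RAS with their own effectors, held 3 lower and 7 higher genes of 12 tested in HepG2 (median 0.30). Of 11 tested in BE(2)C, 5 were lower and none was higher (median -0.19). In HepG2, 3 were higher with equal sums and 1 was lower with GC-corrected values, beside 3206 and 4347 of all genes. The 5 lower in BE(2)C became 2, 2 and 1 without replicate 3 of siC, replicate 2 of siI1 and replicate 3 of siI1, and 1 was higher without replicate 3 of siC or replicate 1 of siI1. In HepG2, RALB, a GTPase downstream of RAS, fell from 59.1 to 29.6 FPKM (log2 fold change -1.0 ± 0.08, SE, limma, adjusted p = 9.2e-05), and DIRAS1 rose from 0.976 to 2.79 FPKM (1.45 ± 0.19, adjusted p = 9.9e-04, and 0.95 with a pseudocount of 1). DIRAS1 went the other way in BE(2)C, from 22.2 to 15.5 FPKM (-0.51 ± 0.07, limma, adjusted p = 0.0026). RRAS fell in BE(2)C from 5.31 to 3.06 FPKM (-0.76 ± 0.21, limma, adjusted p = 0.032). The RRAS call was lost without replicate 1 or 3 of siC (limma, adjusted p = 0.093 and 0.092) and without replicate 2 or 3 of siI1 (0.10 and 0.087), with no filter (0.057) and with no mean-variance trend (0.068). In HepG2, RRAS was higher by 0.46 ± 0.14 (limma, adjusted p = 0.031). That call was lost without replicate 1 of siC or replicates 2 or 3 of siI1 (limma, adjusted p = 0.072, 0.10 and 0.085), with equal sums (value 0.30, adjusted p = 0.072), no filter (0.053), no trend (0.065) and GC-corrected values (0.15, adjusted p = 0.27).

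RAS proteins reach membranes through lipid anchors. Of the 9 genes of lipid processing and transport, all tested, 3 were lower and 1 higher in HepG2 (median -0.17) and 1 was lower and 1 higher in BE(2)C (median -0.06). With equal sums 6 were lower in HepG2, beside 5839 of all 19453 genes, and 2 were higher there without replicate 1 of siI1. Each single library left out of BE(2)C moved the count of lower genes there, to 0 or 2, and 0 were higher without replicates 1, 2 or 3 of siI1. ZDHHC9, a subunit of the RAS palmitoyltransferase, fell in HepG2 from 21.4 to 11.8 FPKM (log2 fold change -0.85 ± 0.06, SE, limma, adjusted p = 9.2e-05). ICMT, which methylates the processed carboxyl terminus, rose in HepG2 from 20.4 to 28.2 FPKM (0.47 ± 0.05, limma, adjusted p = 2.7e-04, and 0.30 with equal sums). ICMT in BE(2)C was at 0.18 ± 0.05 and the protease RCE1 at -0.32 ± 0.09 (limma, adjusted p = 0.038 and 0.033). The ICMT call was lost without any library but replicate 2 of siC (values from 0.13 to 0.19, adjusted p up to 0.11), and the RCE1 call without replicates 1 or 2 of siC and 2 or 3 of siI1 (adjusted p up to 0.097). Both calls were also lost with no filter (limma, adjusted p = 0.053 for each) and no mean-variance trend (0.12 and 0.077), and RCE1 was at -0.18 with GC-corrected values (adjusted p = 0.080).

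Scaffolds and modulators assemble RAF, MEK and ERK or hold them back. In HepG2, 6 of 16 tested were lower and 7 higher (median -0.01), and in BE(2)C, 4 of 15 were lower and 5 higher (median -0.10). The 5 higher in BE(2)C became 1 without replicate 2 or 3 of siI1, 3 without replicates 1 or 3 of siC or replicate 1 of siI1, 2 with no mean-variance trend and 3 with GC-corrected values. SHOC2, part of a phosphatase complex that activates RAF, fell in HepG2 from 10.8 to 6.52 FPKM (log2 fold change -0.72 ± 0.06, SE, limma, adjusted p = 1.8e-04), and the GC-corrected value was -0.44 (adjusted p = 0.0036). SHOC2 in BE(2)C was at 0.22 ± 0.06 (limma, adjusted p = 0.044), a call lost without any 1 of the 6 libraries (values from 0.19 to 0.25, adjusted p from 0.057 to 0.14) and at 0.10 with GC-corrected values (adjusted p = 0.29). PEBP1, the RAF kinase inhibitor protein, rose in HepG2 from 557 to 1189 FPKM (1.09 ± 0.10, limma, adjusted p = 1.8e-04). LAMTOR2, a subunit of the Ragulator complex to which an MEK scaffold belongs, fell in BE(2)C from 27.1 to 19.7 FPKM (-0.46 ± 0.06, limma, adjusted p = 0.0017). CNKSR3 was at 0.57 ± 0.12 in BE(2)C (limma, adjusted p = 0.016), a call lost without replicate 2 or 3 of siI1 (0.062 and 0.051), and at 0.37 with a pseudocount of 1. CNKSR3 also rose in HepG2, from 2.16 to 3.55 FPKM (0.69 ± 0.09, limma, adjusted p = 0.0011).

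Downstream of ERK, 7 of 11 tested substrates and effectors were lower and 2 higher in HepG2 (median -0.51), and 3 of 14 were lower and 2 higher in BE(2)C (median -0.06). The 3 lower in BE(2)C became 0 without replicate 3 of siC or replicate 3 of siI1 and 1 without replicate 2 of siC or replicates 1 or 2 of siI1. The transcription factor ETS1 fell in HepG2 from 1.18 to 0.162 FPKM (log2 fold change -2.35 ± 0.30, SE, limma, adjusted p = 9.3e-04). ETS1 had 8 to 26 reads per siI1 library there, and its value depended on the settings, from -2.98 to -0.91, the latter with a pseudocount of 1. MKNK2, a kinase of the translation factor eIF4E, rose in both lines, from 21.2 to 53.1 FPKM in HepG2 (1.32 ± 0.05, limma, adjusted p = 1.1e-05) and from 23.8 to 38.8 FPKM in BE(2)C (0.71 ± 0.08, adjusted p = 0.0010). RPS6KA1, a kinase of the RSK family, was at -0.63 ± 0.17 in BE(2)C (limma, adjusted p = 0.031), a call lost without any library but replicate 2 of siC (values from -0.66 to -0.50, adjusted p up to 0.097) and with no filter (0.056), and at -0.41 with a pseudocount of 1.

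Feedback and output genes that ERK induces had the list median farthest from 0 in HepG2, with 16 of 17 tested lower and 1 higher (median -2.00), and 3 of 16 lower and 6 higher in BE(2)C (median 0.14). With a filter of at least 1 FPKM in all 6 libraries, 5 were lower in BE(2)C, beside 2745 of all 10961 genes tested. EGR1, an immediate early transcription factor, fell in both lines, from 10.3 to 0.682 FPKM in HepG2 (log2 fold change -3.73 ± 0.11, SE, limma, adjusted p = 3.3e-06) and from 19.6 to 8.97 FPKM in BE(2)C (-1.12 ± 0.13, adjusted p = 0.0014). CCND1, which encodes cyclin D1, rose in HepG2 by 0.23 ± 0.05 (limma, adjusted p = 0.0092), a call lost with equal sums (0.06, adjusted p = 0.38). SPRY4, a feedback inhibitor, fell in HepG2 from 20.8 to 1.83 FPKM (-3.44 ± 0.09, limma, adjusted p = 2.5e-06) and rose in BE(2)C from 21.0 to 30.6 FPKM (0.54 ± 0.04, adjusted p = 3.8e-04).

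Kinases of the parallel MAP kinase pathways gave 7 lower and 3 higher of 14 tested in HepG2 (median -0.30) and 2 lower and 1 higher of 16 tested in BE(2)C (median -0.09). The 7 lower in HepG2 became 4 without replicate 1 of siC, replicate 3 of siC, replicate 2 of siI1 or replicate 3 of siI1 and with median centring, and the 3 higher became 1 with equal sums. MAPK14, which encodes p38 alpha, fell in HepG2 from 21.2 to 10.7 FPKM (log2 fold change -0.99 ± 0.08, SE, limma, adjusted p = 1.0e-04). In BE(2)C, MAPK14 was also lower, with values from -0.38 to -0.33 over the other settings (limma, adjusted p up to 0.017). MAP2K6, a kinase of p38, rose in HepG2 from 1.84 to 2.95 FPKM (0.65 ± 0.10, limma, adjusted p = 0.0020). MAPK12 fell in HepG2 from 2.65 to 1.69 FPKM (-0.61 ± 0.13, limma, adjusted p = 0.0095). It also fell in BE(2)C, from 8.11 to 5.74 FPKM (-0.49 ± 0.09, limma, adjusted p = 0.0075). MAPK10 went from 0.168 to 0.370 FPKM there (0.82 ± 0.25, limma, adjusted p = 0.047), a call lost without any 1 of the 6 libraries (values from 0.70 to 0.89, adjusted p from 0.075 to 0.13), with a pseudocount of 0.01 (0.056), with no filter (0.092) and with GC-corrected values (0.052). With a pseudocount of 1 its value was 0.23.

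**Figure D5:**
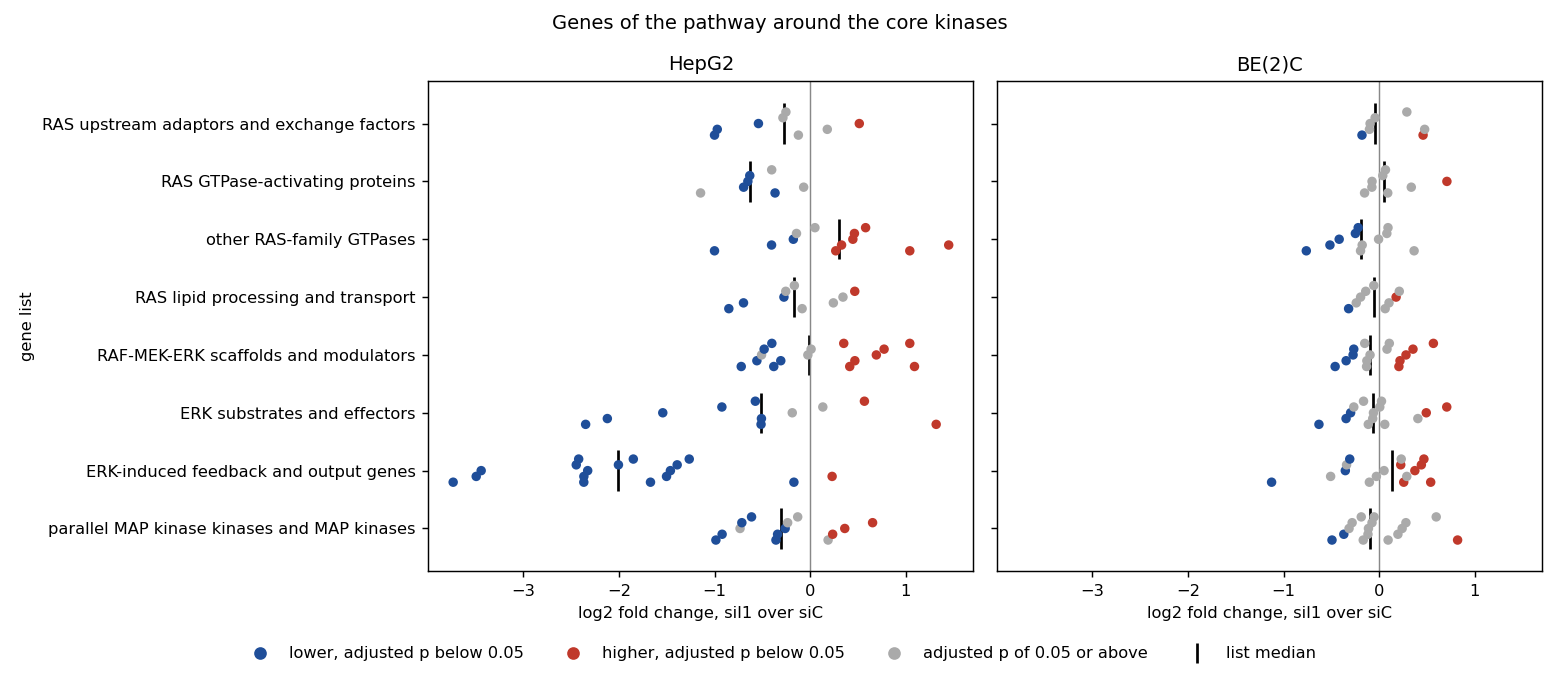
Log2 fold change of siI1 over siC (horizontal axes) of each tested gene in the 8 lists in HepG2 and BE(2)C, in colour where the adjusted p was below 0.05, with black bars for the list medians. The feedback and output genes have a median of -2.00 in HepG2 and 0.14 in BE(2)C.

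Some members share their place in the genome with other genes. Annotated protein-coding genes overlap ARAF (SYN1, 8 nt), BRAF (NDUFB2, 3464 nt) and MAP2K1 (SNAPC5, 1522 nt), each on the opposite strand. The libraries were strand-specific, and the strand setting of the counting is not given in the sources used here, so reads of such a pair cannot be told apart with certainty. The log2 fold change of SNAPC5 was 0.21 ± 0.08 in HepG2 and -0.39 ± 0.07 in BE(2)C, that of NDUFB2 was -0.09 ± 0.12 and -0.47 ± 0.06, and that of SYN1 was -0.10 ± 0.09 in BE(2)C (SE, limma). The tables list 4 pseudogenes by names derived from ARAF and BRAF, with at most 0.0523 FPKM in any library.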

How the data were processed

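The authors clipped reads with cutadapt 1.14, aligned them to hg38 with HISAT2 2.1.0, summarized them per gene with featureCounts 1.5.3 on an Ensembl annotation and tested each line with edgeR 3.30.3 (tools per the labels and the study's methods, SAMtools 1.5 per the labels). The authors deposited FPKM per library, on a TMM-scaled library size, and for each gene the log2 fold change, p-value and FDR of their own comparison, which were not used. The strand setting of featureCounts and its handling of multi-mapping reads are not given in the sources used here. The tables name no unit, and FPKM was taken from the values: multiplied by gene length, 100% of nonzero values were integers in units of the library's smallest increment (tolerance 0.01), and these integers are the reads per gene.

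Genes that reached 0.1 FPKM in 3 or more of the 6 libraries were tested on log2(FPKM + 0.1), a scale that understates changes of low genes, with limma 3.58.1 in R 4.3.3 (mean-variance trend, two-sided, Benjamini-Hochberg adjustment over all genes tested, threshold 0.05). The difference between lines was an interaction contrast over 12 libraries. Ratios were compared by exact permutation tests. Scripts were tested on simulated data. GC content was that of the canonical GENCODE v44 transcript, known for 98.8% of tested HepG2 genes and 98.9% of tested BE(2)C genes. The correction removed a loess trend (span 0.5) of each library's deviations, fitted on genes with a mean FPKM of at least 1. 3'UTRs were those of the same transcripts, and like length means 0.8 to 1.25 times that of the gene's own.

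Named genes are the 7 members, IGF2BP1, for 7 of the 8 lists the called gene with the largest fall and rise per line, the 2 genes most alike per member, and overlapping genes. The members and lists were chosen with earlier results of these data known. Alternatives covered pseudocounts of 0.01 and 1, filters, trend, scaling, voom, the replicate block and each library left out, and, added after seeing the data, GC-corrected values and the fit without both libraries that stood apart. Reads of 162 to 4073 per library lie behind the members' values. Python 3.11.15, NumPy 2.4.6, pandas 2.3.3, Matplotlib 3.10.9 and the R package data.table (version 1.17.8) were used.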

Additional observations from a re-analysis of the deposited data

Results flagged for a closer look

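The responses of 4 members differed between the cell lines by limma's test of the difference, HepG2 minus BE(2)C: 0.94 for MAPK3, -0.62 for MAP2K1, 0.53 for ARAF and -0.34 for NRAS on the log2 scale. MAPK3 was higher in all 3 siI1 libraries of HepG2 than in any siC library, and was not called in BE(2)C. With GC-corrected values the difference was 0.55 for MAPK3, -0.66 for MAP2K1, 0.21 for ARAF and 0.05 for NRAS.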

How the results depend on the processing

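Of 160 values of the members and IGF2BP1 under other settings, 147 kept direction and side of the threshold, as did 77 of 84 differences between lines and 680 of 745 values of the other named genes. With single libraries left out these were 86 of 96, 75 of 84 and 373 of 450. The cause of the changes was not tested.

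Members higher in HepG2 numbered 2 with median centring, 2 with the replicate block and from 1 to 2 with a library left out. Members lower numbered from 2 to 3 in HepG2 and from 2 to 4 in BE(2)C over the settings, as the counts of all genes called also moved. With a library left out, members lower numbered 2 in HepG2 and from 2 to 3 in BE(2)C. List genes higher in HepG2 numbered 12 with equal sums. With a library left out, list genes in BE(2)C ranged from 10 to 16 lower and from 9 to 16 higher, against 19 and 17 with all. The ratio of MAP2K1 over MAP2K2 ranged from -0.37 to -0.26 as the mean of both lines and from -0.0811 to 0.12 in BE(2)C.

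With GC-corrected values the direction turned for ARAF (-0.0262), BRAF (0.0818), LAMTOR2 (-0.15), KLHDC8B (-0.00601) and USP5 (-0.0595) in HepG2, for MAPK3 (0.0189), CCND1 (0.0171) and CLNS1A (-0.0278) in BE(2)C, for the differences of NRAS (0.0514), HRAS (-0.16), BRAF (0.050002) and MAP2K2 (-0.47), and for the ratios of ARAF over BRAF in HepG2 (-0.11) and MAP2K1 over MAP2K2 in BE(2)C (-0.0635). The ratio of ARAF over BRAF over both lines passed at -0.19.

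Equal sums turned ARAF (-0.00552), LAMTOR2 (-0.16) and USP5 (-0.0738) in HepG2 and the difference of MAP2K2 (-0.14), and median centring turned CCND1 in BE(2)C (0.0107). With a library left out, values crossed 0 for LAMTOR2 in HepG2 (from -0.0940 to 0.12), HRAS (from -0.12 to 0.13), FAN1 (from -0.0430 to 0.27) and MED19 (from -0.0247 to 0.0748) in BE(2)C, and the difference of MAP2K2 (from -0.0414 to 0.17).

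Same-numbered siC and siI1 libraries had correlations of their deviations of 0.0625, 0.0351 and -0.00619 in HepG2 and 0.0225, -0.0102 and -0.00283 in BE(2)C. Replicate 1 had the lowest base composition measure of both HepG2 groups (-0.34 and 0.01) and the highest of both BE(2)C groups (0.31 and -0.06). For each member, replicate 1 was also the highest or the lowest library of both HepG2 groups, on the same side. What a shared number stands for was not tested. With the replicate block, 8820 genes were called in HepG2 and 4672 in BE(2)C (8713 and 5252 without), HRAS passed in HepG2 (limma, adjusted p = 0.026), and the ratio of NRAS over HRAS was -0.83. Its 6 pairs all fell, and a sign-flip test of these pairs gave an adjusted p over 3 ratios of 0.094, so the call was lost there. With 6 pairs, a ratio at the smallest possible p passes this adjustment only if another of the 3 ratios reaches it too.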
